A study of Homo sapiens with 9 samples.

Results

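The Kruppel-like factors (KLFs) other than the transduced KLF4 were followed across A549 lung adenocarcinoma cells and the cells made from them by transduction of OCT3/4, SOX2 and KLF4 (OSK). The members are 9 genes, KLF2, KLF3, KLF5, KLF6, KLF7, KLF9, KLF10, KLF11 and KLF13. They were found as every non-control probe annotated with a RefSeq transcript of one of these genes, which gave 10 of the 50599 probes of the array: 1 for each gene and 2 for KLF6. The rule itself uses no measured value, but the 9 genes were chosen with earlier results of these data known. The remaining KLF genes are described apart. Total RNA was hybridised to single-colour (Cy3) Agilent human arrays with 3 arrays in each of 3 groups. Parental A549 cells, an established human line, were untransduced and at passage 98, 98 and 99. OSK-A549-Colony cells were A549 cells transduced with OSK in retrovirus vectors that grew as dome-shaped colonies, and OSK-A549-SN cells were the spindle-shaped cells around those colonies, which came off first in trypsin. The groups are called parental, Colony and SN below. Both transduced groups were at a later passage than the parental cells. Per the methods, the RNA came from independent transduction experiments. Both transduced groups carry all 3 factors and have no empty-vector arm on the arrays, so transduction cannot be told apart from the later passage, and no factor can be told apart from the others.

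KLF proteins are transcription factors that bind CACCC and GC boxes through a row of zinc fingers at the carboxyl end, and compete for such sites with the related SP proteins. By their partners they fall into 3 broad groups. KLF2, KLF5, KLF6 and KLF7 mostly activate transcription and recruit acetyltransferases, as KLF4 and KLF1 do. KLF3, with KLF8 and KLF12, represses transcription through the corepressor CtBP. KLF9, KLF10, KLF11 and KLF13, with KLF14 and KLF16, can recruit the SIN3A corepressor complex. In epithelia KLF5 is known for driving proliferation, KLF2 and KLF6 for restraining it, and KLF4 for differentiation as well as for its use in reprogramming.

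Upstream sequence of 4 members is shown first, because their levels carry the results that follow: KLF9 and KLF5 differed across the 3 groups, and KLF6 and KLF2 were the members that stood furthest apart between the transduced groups. The sequences are the 250 bases before annotated transcript starts, read from RefSeq (GRCh38.p14) in the 5′ to 3′ direction of the gene. Capitals mark the CACCC box (CACCC or its reverse complement GGGTG) and the GC box (GGGCGG or CCGCCC), and no marked match of one overlaps one of the other. KLF9 lies on the minus strand at chr9:70414658-70414907, KLF6 on the minus strand at chr10:3785210-3785459 and KLF2 on the plus strand at chr19:16324576-16324825. KLF5 has separate starts on the plus strand, upstream at chr13:73054726-73054975 and downstream at chr13:73058755-73059004.
KLF9: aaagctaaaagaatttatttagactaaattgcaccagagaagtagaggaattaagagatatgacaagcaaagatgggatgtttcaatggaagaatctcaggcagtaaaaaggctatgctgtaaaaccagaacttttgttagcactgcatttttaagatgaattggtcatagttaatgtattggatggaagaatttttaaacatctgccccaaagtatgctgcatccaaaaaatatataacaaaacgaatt
KLF5 upstream start: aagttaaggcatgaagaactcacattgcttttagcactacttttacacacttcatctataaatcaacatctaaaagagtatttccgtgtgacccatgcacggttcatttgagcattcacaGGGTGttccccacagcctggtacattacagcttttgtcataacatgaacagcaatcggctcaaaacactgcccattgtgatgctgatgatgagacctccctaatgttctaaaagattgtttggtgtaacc
KLF5 downstream start: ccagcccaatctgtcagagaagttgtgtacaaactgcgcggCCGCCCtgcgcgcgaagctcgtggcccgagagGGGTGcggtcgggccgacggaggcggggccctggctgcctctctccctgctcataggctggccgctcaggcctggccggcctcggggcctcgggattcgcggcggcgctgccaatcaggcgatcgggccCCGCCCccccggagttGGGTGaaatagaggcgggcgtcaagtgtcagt
KLF6: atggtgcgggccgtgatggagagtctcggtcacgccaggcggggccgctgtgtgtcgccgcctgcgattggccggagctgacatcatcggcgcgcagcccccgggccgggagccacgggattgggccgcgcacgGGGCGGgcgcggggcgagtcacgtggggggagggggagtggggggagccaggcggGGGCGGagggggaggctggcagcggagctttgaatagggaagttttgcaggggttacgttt
KLF2: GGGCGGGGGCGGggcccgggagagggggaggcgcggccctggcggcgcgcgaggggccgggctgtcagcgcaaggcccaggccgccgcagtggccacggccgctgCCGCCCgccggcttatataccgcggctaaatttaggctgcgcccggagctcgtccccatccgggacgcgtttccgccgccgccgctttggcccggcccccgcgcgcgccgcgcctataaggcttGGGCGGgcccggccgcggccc
The KLF9 stretch held neither motif, and 32.4% of its bases were G or C, against a median of 58.0% over the 35116 stretches of the same length in the promoter table. The upstream start of KLF5 held 1 CACCC box, and the downstream start held 2 CACCC boxes and 2 GC boxes. The KLF6 stretch held 2 GC boxes and that of KLF2 held 4, and neither held a CACCC box. A CACCC box was present in 54.7% of all stretches and a GC box in 42.6%. Of the 9 members, 7 had an entry in the table, and KLF3 and KLF10 did not. These letters are a description of the windows and say nothing of whether a factor binds there.

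All values below are log2 intensities after subtraction of the 75th percentile of the array, which itself lay between 218 and 271 intensity units. A value of 0 is therefore the brightness of the probe at that percentile, and levels of different probes are not ranked against each other, since probes differ in brightness for equal RNA. The difference between the KLF6 probes within an array is given only to set the groups side by side, and its size has no meaning of its own. The 10 member probes were detected, meaning above background, on all 9 arrays, so no member was lost to the filter on dim probes. The arrays of a group correlated at 0.983 to 0.997 over 23758 probes, with the widest spread among the parental arrays. The median SD between the 3 arrays of a group was 0.21 for parental cells, 0.09 for Colony and 0.16 for SN. All 8 epithelial markers of A549 cells, among them KRT18 and ALDH1A1, were detected on all 9 arrays, with a summed intensity of at least 628391 on each parental array. The fibroblast markers COL1A2, COL3A1, PDGFRB, DCN and THY1 were detected on 0 of 9 arrays, and COL1A1 on 3 arrays at no more than 18.5 intensity units. Of the blood cell markers, PTPRC at 26.0 to 64.2 intensity units and CD14 at 509 to 1647 were detected on all 9 arrays and CD3E on 2. The endothelial markers CDH5 and VWF were detected on all 9 arrays at no more than 66.8 intensity units, and PECAM1 on 0. SN replicate 3 was alone on slide 2, with the other 8 arrays on slide 1.

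KLF9 was 2.34-fold lower in Colony than in parental cells and was the single member probe of 10 called at an adjusted p under 0.05 with a fold change over 2. Over all probes tested in this comparison, 3.70% were called, and the KLF9 call was lost in 5 of the 6 fits that left out 1 array. KLF9 also had the smallest F test p of the members. Across the 3 groups, KLF9 and KLF5 differed by limma's F test, with adjusted p of 0.0246 and 0.0462, which is 2 of 10 probes where 11.4% of all probes passed. KLF13 followed with an adjusted p of 0.0672 and KLF6 (NM_001300) with 0.0854.

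**Figure D1:**
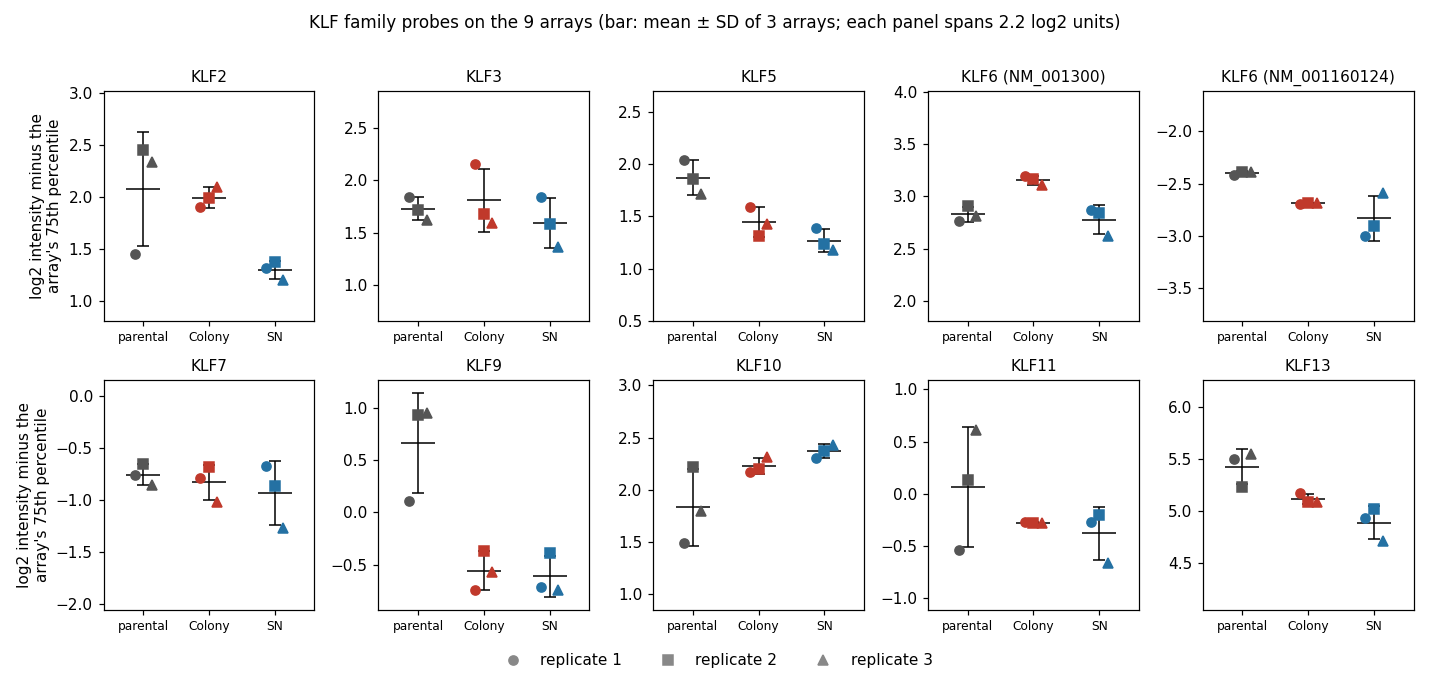
Log2 intensity minus the 75th percentile of the array for each KLF family probe, by group, with 1 symbol per array and the mean ± SD of 3 arrays as the bar. KLF9 lay between 0.11 and 0.95 on the parental arrays and between -0.74 and -0.37 on the 6 transduced arrays.

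KLF9, also known as BTEB1, is induced by glucocorticoid and thyroid hormone and restrains growth in several tissues. Its log2 level on parental replicates 1, 2 and 3 was 0.11, 0.93 and 0.95, from intensities of 276, 483 and 422. The Colony arrays gave -0.74, -0.37 and -0.57 (intensities 150, 182 and 162), and the SN arrays -0.71, -0.39 and -0.74 (intensities 141, 167 and 162). Every transduced array lay below every parental array, and the transduced groups overlapped. The log2 fold change in Colony against parental was -1.23 (SE 0.26, adjusted p = 0.0474, limma), with a 95% interval of the fold from 1.49 to 3.68 lower. In SN it was -1.28 (SE 0.27, adjusted p = 0.0780), 2.43-fold lower and not past the threshold. Between Colony and SN the difference was 0.05 log2 units (95% interval -0.32 to 0.43, adjusted p = 0.853), so differences of up to 1.35-fold remain possible. The call was close to the threshold: it was lost when any array other than parental replicate 1 was left out (adjusted p 0.0750 to 0.149) and kept without parental replicate 1 (log2 fold change -1.50, adjusted p = 0.0290). In the same fits the number of all probes called, 1143 with all arrays, lay between 0, without Colony replicate 2, and 1362, without parental replicate 1. The KLF9 call was also lost without the detection filter and under normexp background correction, where the log2 fold change of -0.96 was under 2-fold (adjusted p = 0.0214). The offset of 50 added under normexp by itself shrinks log2 differences at such intensities.

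No other SIN3A-binding member was called. KLF13, which activates the chemokine gene CCL5 in T cells, gave log2 levels of 5.50, 5.23 and 5.55 on the parental arrays. Colony gave 5.17, 5.08 and 5.09 and SN 4.94, 5.02 and 4.71. The 3 groups did not overlap and stood in the order parental, Colony, SN. The log2 differences were -0.31 for Colony against parental (SE 0.12, adjusted p = 0.156), -0.54 for SN against parental (SE 0.16, adjusted p = 0.135) and 0.22 for Colony against SN (SE 0.11, adjusted p = 0.320). None passed the threshold in limma's test.

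KLF10 and KLF11 are immediate targets of TGF-beta signalling, and KLF10 is also known as TIEG1. KLF10 gave 1.49, 2.22 and 1.79 on the parental arrays, 2.17, 2.20 and 2.31 in Colony and 2.31, 2.37 and 2.43 in SN. It was the one member with a higher mean in SN than in parental cells, and these groups did not overlap, but the parental arrays spread over 0.73 log2 units. The differences of 0.39 in Colony (SE 0.20, adjusted p = 0.249) and 0.54 in SN (SE 0.21, adjusted p = 0.214) did not pass limma's threshold. KLF11 gave -0.54, 0.13 and 0.61 on the parental arrays, -0.27, -0.28 and -0.28 in Colony and -0.27, -0.20 and -0.67 in SN. Its parental SD of 0.58 was larger than that of 95.4% of all detected probes, while its SD in Colony, 0.0087, was larger than that of 0.90%. Both transduced groups lay inside the parental range of KLF11 except SN replicate 3, and no difference passed the test (smallest adjusted p = 0.453).

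Among the activating members, KLF5 passed the F test across the groups. KLF5 drives proliferation of basal and crypt epithelial cells. It gave 2.04, 1.86 and 1.71 on the parental arrays, 1.59, 1.31 and 1.43 in Colony and 1.39, 1.24 and 1.18 in SN. Every transduced array lay below every parental array, and both transduced groups overlapped. KLF5 was 1.34-fold lower in Colony than in parental cells (log2 fold change -0.43, SE 0.14, adjusted p = 0.103) and 1.52-fold lower in SN (log2 fold change -0.60, SE 0.15, adjusted p = 0.0972). Neither comparison of 2 groups passed, although the F test over all 9 arrays did. KLF5 lost this pass without the detection filter, with slide as a block and when any array other than parental replicate 3 was left out. KLF9 lost it when 1 of parental replicates 2 and 3, SN replicate 1 or any Colony array was left out.

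KLF2 holds endothelial and T cells in quiescence. Its probe is printed 10 times on each array, and the SD between the spots kept, 9 on SN replicate 1 and 10 on the other arrays, was at most 0.10 log2 units. This is the technical error within an array and not that between samples. Parental replicates gave 1.45, 2.45 and 2.33 (intensities 698, 1384 and 1099), Colony 1.90, 1.99 and 2.10 (intensities 937, 931 and 1035) and SN 1.32, 1.38 and 1.20 (intensities 577, 566 and 624). All Colony arrays lay above all SN arrays. Parental replicate 1 lay below the Colony arrays and the other two parental arrays above them. KLF2 was 1.62-fold higher in Colony than in SN (95% interval 1.37 to 1.91, log2 fold change 0.70, SE 0.10), with an unadjusted p of 0.000481 in limma that ranked 138 among 31746 probes and an adjusted p of 0.105. Normexp background correction brought this adjusted p to 0.0215 at a log2 fold change of 0.65, under 2-fold and so not called. In SN against parental cells KLF2 was 1.72-fold lower (log2 fold change -0.78, SE 0.28, adjusted p = 0.194), and without parental replicate 1 the log2 fold change was -1.09 (adjusted p = 0.0661). Without that array KLF2 passed the F test across the 3 groups, with an adjusted p of 0.0134 against 0.114 with all arrays. Colony differed from parental cells by -0.08 log2 units (95% interval -0.78 to 0.62, adjusted p = 0.858).

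KLF6, known as a tumour suppressor that induces CDKN1A, was read by probes for transcripts NM_001300 and NM_001160124. The NM_001300 probe gave 2.77, 2.91 and 2.81 on the parental arrays, 3.19, 3.17 and 3.11 in Colony and 2.87, 2.84 and 2.62 in SN. All Colony arrays lay above all others. The difference of 1.25-fold over parental cells (log2 fold change 0.33, SE 0.10, adjusted p = 0.0878) and of 1.30-fold over SN (0.38, SE 0.10, adjusted p = 0.161) did not pass limma's threshold, and SN differed from parental by -0.05 (adjusted p = 0.838).

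The NM_001160124 probe had the opposite sign in Colony. Its log2 levels were -2.42, -2.39 and -2.39 on the parental arrays, -2.70, -2.69 and -2.69 in Colony and -3.0, -2.91 and -2.59 in SN, from intensities of 28.9 to 48.3. All transduced arrays lay below all parental arrays, with differences of -0.29 in Colony (SE 0.09, adjusted p = 0.0913) and -0.43 in SN (SE 0.15, adjusted p = 0.180). With normexp these were -0.13 and -0.15, but the offset of 50 added there exceeds the intensities of this probe and by itself shrinks its log2 differences. After these values were seen, the difference between both probes was taken within each array. It was 5.18, 5.30 and 5.20 log2 units in parental cells, 5.89, 5.85 and 5.79 in Colony and 5.87, 5.75 and 5.21 in SN. The Colony mean was 0.62 log2 units above the parental mean, without overlap, and the SN mean was 0.38 above it, with replicate 3, the array on slide 2, at the parental level. Since this difference was chosen for the opposite signs of the probes, it is a description with no test.

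**Figure D2:**
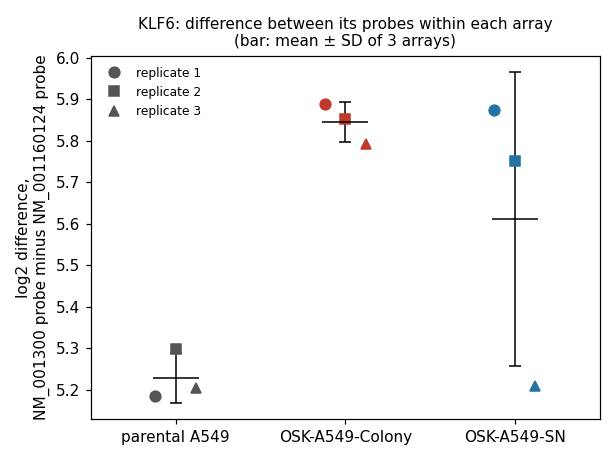
Difference in log2 intensity between the NM_001300 and NM_001160124 probes of KLF6 within each array, by group, with 1 symbol per array and the mean ± SD of 3 arrays as the bar. The 3 Colony arrays lie at 5.79 to 5.89 and the parental arrays at 5.18 to 5.30, while SN spans 5.21 to 5.87.

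KLF7, best known for axon growth, and the CtBP-binding repressor KLF3 showed no group difference beyond their spread when replicate number was not used. KLF7 gave -0.76, -0.65 and -0.85 on the parental arrays, -0.79, -0.69 and -1.02 in Colony and -0.68, -0.86 and -1.27 in SN, and no adjusted p was under 0.610. KLF3 gave 1.85, 1.72 and 1.62 on the parental arrays, 2.16, 1.68 and 1.59 in Colony and 1.84, 1.58 and 1.36 in SN. All 3 groups overlapped, and the 95% interval of Colony against parental cells, -0.36 to 0.52 log2 units, leaves differences of up to 1.44-fold possible (adjusted p = 0.780). The SD of KLF3 among Colony arrays, 0.30, was larger than that of 93.8% of all detected probes.

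KLF4, the transduced member, was read by 1 probe, and whether it reads the vector's transcript, the cell's own or both was not tested. It gave -2.34, -2.48 and -2.28 on the parental arrays, 1.50, 0.33 and -0.61 in Colony and 1.08, 0.55 and -1.33 in SN. All transduced arrays lay above all parental arrays, and KLF4 was called in Colony (log2 fold change 2.77, SE 0.52, adjusted p = 0.0373) and not in SN (2.47, SE 0.61, adjusted p = 0.100). In both transduced groups replicate 1 was highest and replicate 3 lowest for KLF4. Of the 10 member probes, 2 (KLF3 and KLF6 NM_001300) had this order in both groups, 2 (KLF10 and KLF6 NM_001160124) had the opposite order in both, and 6 had neither.

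**Figure D3:**
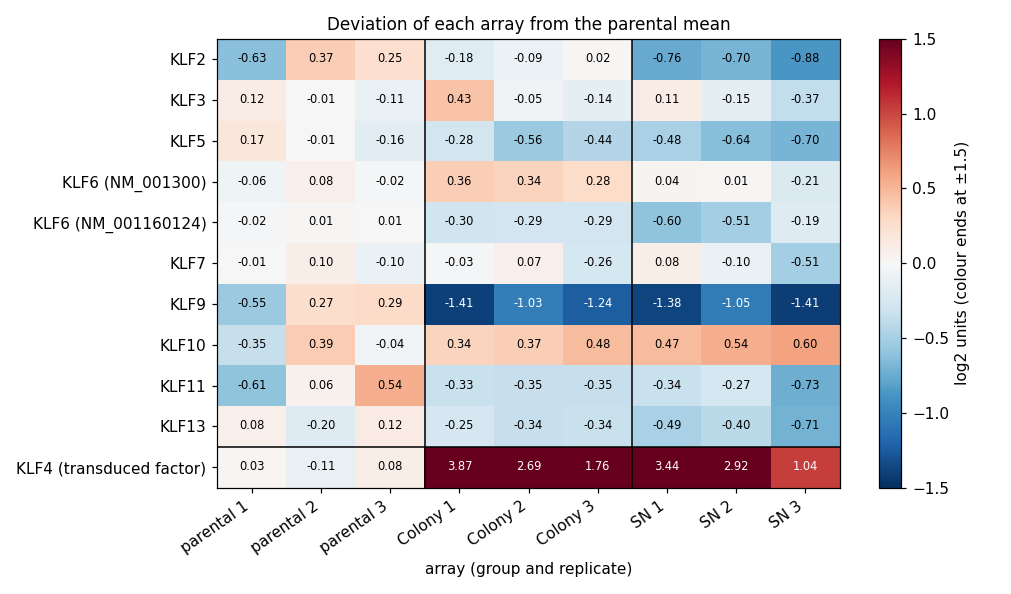
Deviation of each array from the mean of the 3 parental arrays for the KLF family probes and for KLF4, in log2 units, with arrays in columns and probes in rows. The 6 transduced arrays lie at -1.41 to -1.03 for KLF9, and parental replicate 1 lies at -0.63 for KLF2, -0.55 for KLF9, -0.35 for KLF10 and -0.61 for KLF11.

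Parental replicate 1 was the lowest of the 3 parental arrays for 6 of the 10 probes and the highest for 2. It lay below the next parental array by 0.88 log2 units for KLF2, 0.82 for KLF9 and 0.67 for KLF11. For KLF10 the gap was 0.31, and parental replicate 2 lay further from the middle array on the other side. PER1, a clock gene that glucocorticoids induce, was also lowest there (-0.88, against -0.22 and -0.14), as were DUSP1 (3.02, against 3.54 and 3.85) and TSC22D3 (1.16, against 1.86 and 1.91). The other 4 genes of the glucocorticoid list were not lowest there: FKBP5 (-1.07, against -1.40 and -1.42), NR3C1 (5.15, against 5.13 and 4.97) and SGK1 (2.41, against 2.37 and 2.04) were highest, and ZBTB16 gave -2.749, against -2.750 and -2.34. Their part in the KLF values was not tested.

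The counts that follow are of the 10 member probes, 2 of them for KLF6. Colony against parental cells had 3 probes with a higher mean and 7 with a lower one, where 52.8% of all probes tested had a lower mean. Of these, 1 higher and 4 lower did not overlap between the groups. Over all probes tested, 41.6% did not overlap, so the members' 5 of 10 are near the background. An unadjusted p under 0.05 was reached by 5 of 10 members and by 30.1% of all probes. The members' median log2 fold change was -0.19, against -0.03 over all probes. SN had 9 of 10 member probes, both KLF6 probes among them, with a lower mean than parental cells, where 42.7% of all probes had one. Of these, 5 did not overlap, and KLF10 was higher without overlap, where 32.1% of all probes did not overlap. None of the members was called, against 1.55% of all probes, 6 had an unadjusted p under 0.05 against 21.6% of all probes, and their median was -0.44 against 0.08 over all probes. In Colony against SN, 9 of 10 member probes, both KLF6 probes among them, had a higher mean, where 41.9% of all probes had one. Of these, 3 did not overlap (KLF2, KLF6 NM_001300 and KLF13), where 30.8% of all probes did not overlap. The members' median was 0.16, against -0.06 over all probes. No member and 0% of all probes were called there by limma, and 2 members and 6181 probes, or 19.5%, had an unadjusted p under 0.05. The comparisons share arrays, so their counts are not independent. Without SN replicate 3, the 9 of 10 higher members in Colony against SN became 6 of 10, and the 9 of 10 lower members in SN against parental cells became 8 of 10.

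**Figure D4:**
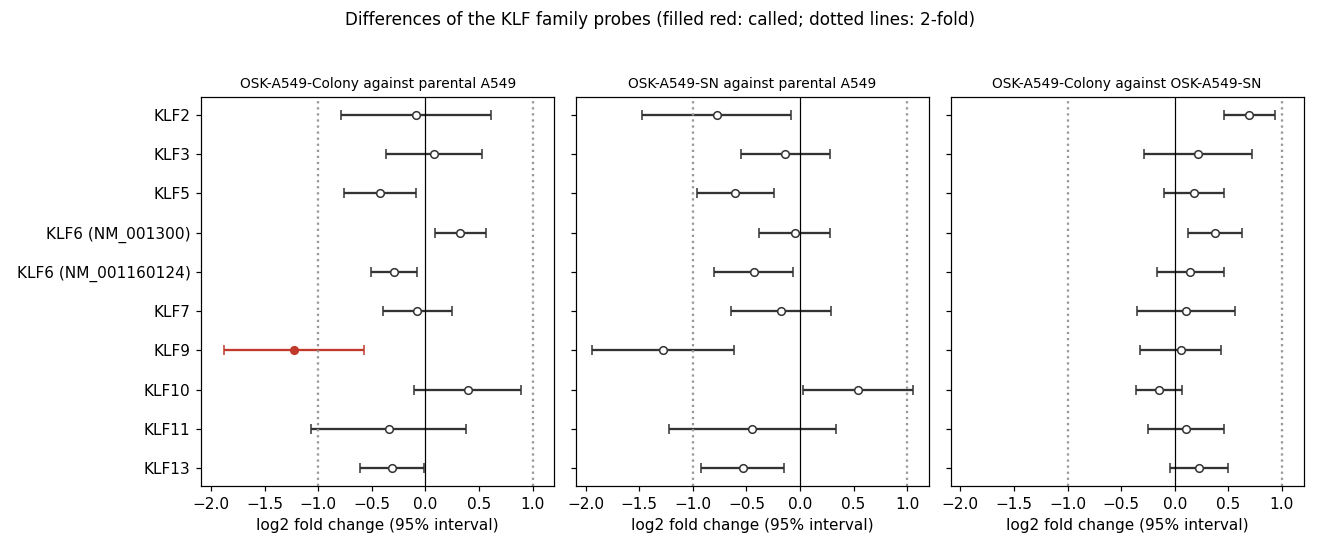
Log2 fold change of each KLF family probe with its 95% interval from limma in the 3 comparisons, with the called probe in filled red and dotted lines at 2-fold. KLF9 is the only filled point, at -1.23 in Colony against parental A549, and KLF2 lies furthest from 0 in Colony against SN, at 0.70.

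The remaining KLF genes were described by the same measure. Of the 8 listed, 7 were on the array with 8 probes. KLF1, KLF12, KLF16 and KLF17 were detected on all 9 arrays, KLF8 and KLF14 on some, and KLF15 on none. The 1 probe of KLF17 gave 9832 to 18236 intensity units and the 1 probe of KLF1 gave 86.3 to 184. Whether these probes read only the transcript they are annotated with was not tested. None of these genes was called in any comparison. Of the 6 that could be tested, each by its brightest probe, 2 had a higher mean in Colony than in parental cells and 4 a lower one (median log2 fold change -0.22). In SN against parental cells 3 were higher and 3 lower (median 0.10), and in Colony against SN also 3 and 3 (median -0.08). These counts include KLF8 and KLF14, so the direction seen among the members was not that of the other KLF genes. KLF8, a CtBP-binding repressor, had 1 probe that was detected on 2 parental arrays, 1 Colony array and 0 SN arrays, at 6.29 to 26.9 intensity units. Its other probe was detected on 2 SN arrays and on no other. With so few arrays above background, no change of KLF8 was measured. KLF12 gave a log2 difference of -0.36 in Colony (adjusted p = 0.397) and -0.37 in SN (adjusted p = 0.455) against parental cells. KLF16 differed from parental cells by 0.04 in Colony and 0.20 in SN, and KLF17 fell short of the threshold in every comparison (smallest adjusted p = 0.264).

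SP proteins bind the same GC boxes, and all 9 were tested. In Colony against parental cells, 1 of the 9 was called lower and 0 higher, where 3.70% of all probes were called. SP5, a WNT-responsive repressor, gave -0.76, -0.46 and -0.47 on the parental arrays, -1.37, -2.14 and -2.41 in Colony and -0.81, -0.55 and -1.48 in SN. It fell by 1.41 on the log2 scale in Colony (SE 0.29, adjusted p = 0.0431) and differed by -0.39 in SN (adjusted p = 0.439), and Colony differed from SN by -1.03 (adjusted p = 0.217). The next lowest was SP9 at -0.44 (adjusted p = 0.0650), and the highest were SP6 at 0.55 (adjusted p = 0.120) and SP3 at 0.32 (adjusted p = 0.417). No SP gene was called in the other comparisons.

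Of 21 partners and regulators of KLF proteins, such as corepressors, acetyltransferases, ubiquitin ligases and MEF2 factors, 0 were called in any comparison, with 2 of 20 tested at an unadjusted p under 0.05 in Colony against parental cells, where 30.1% of all probes reached it. Among those detected on all 6 arrays, the lowest there were CREBBP, an acetyltransferase that KLF proteins recruit, at -0.39 (adjusted p = 0.135) and FHL3, a KLF3 partner, at -0.22 (adjusted p = 0.664). The highest were HDAC2, a histone deacetylase of the SIN3A complex, at 0.46 (adjusted p = 0.102) and CTBP2, the corepressor of KLF3, at 0.25 (adjusted p = 0.231). WWP1, a ubiquitin ligase that targets KLF2 and KLF5, gave -0.45 in SN against parental cells (adjusted p = 0.150) and 0.39 in Colony against SN (adjusted p = 0.125).

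KLF10 and KLF11 respond to TGF-beta and KLF9 to glucocorticoid, so response genes of both were read. Among the TGF-beta response genes the signs were mixed. In Colony against parental cells TGFBI gave -0.51 (adjusted p = 0.149), PMEPA1 0.81 (adjusted p = 0.118) and BHLHE40 -0.03 (adjusted p = 0.941). CCN2, a matrix protein gene, gave -0.87 in SN against parental cells (adjusted p = 0.102) and 1.14 in Colony against SN (adjusted p = 0.110). Of 7 glucocorticoid response genes, 0 were called in any comparison, with 2 of them (PER1 and NR3C1) at an unadjusted p under 0.05 in Colony against parental cells, near the 30.1% of all probes. PER1 gave -0.66 (adjusted p = 0.133), DUSP1 -0.35 (adjusted p = 0.362), FKBP5 0.31 (adjusted p = 0.300) and TSC22D3 0.48 (adjusted p = 0.241) there. Between Colony and SN 3 of the 7 reached an unadjusted p under 0.05 in limma, against 19.5% of all probes. In SN against parental cells 0 did, against 21.6%. The extremes between Colony and SN were TSC22D3 at 0.73 (adjusted p = 0.110) and DUSP1 at -0.54 (adjusted p = 0.126).

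Genes that KLF proteins are known to regulate were read last. Of the 13 of 15 that could be tested in Colony against parental cells, 2 were called higher and 0 lower, where 3.70% of all probes were called in either direction. PLAU, the urokinase gene, gave 2.55, 3.21 and 3.67 on the parental arrays, 4.80, 4.99 and 5.10 in Colony and 4.53, 4.74 and 4.50 in SN, and rose by 1.82 on the log2 scale in Colony (SE 0.30, adjusted p = 0.0308). THBD, thrombomodulin, a gene that KLF2 activates in endothelium, gave 2.10, 2.49 and 2.36, then 3.52, 3.31 and 3.30, then 3.24, 3.17 and 2.59 in the same order of groups, and rose by 1.06 in Colony (SE 0.14, adjusted p = 0.0232). In SN against parental cells the differences of PLAU, 1.45 (adjusted p = 0.0737), and of THBD, 0.69 (adjusted p = 0.160), did not pass. CDH1, which encodes E-cadherin, differed by -0.996 in Colony with an adjusted p of 0.0318 and stayed just under 2-fold. LGALS3, which encodes galectin-3, passed the same p on the higher side, with a difference of 0.60 (adjusted p = 0.0486) under 2-fold. CDKN1A, the cell cycle inhibitor, differed by -0.69 (SE 0.61, adjusted p = 0.474). Nothing on this list was called in the other comparisons.

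The 3 member probes with the smallest F test p were also set against all other named genes detected on all 9 arrays, 18618 candidates, by Pearson's r over the 9 arrays. The 9 points share 3 groups, and r is given as a description. Nearest to KLF9 were POGZ (r = 0.985), APOE (0.985) and FAR2P2 (0.983). KLF5 lay nearest to VIL1 (0.976), NPNT (0.976) and ANK3 (0.974), and KLF13 to STARD10 (0.968), TRAK1 (0.966) and C6orf132 (0.964).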

How the data were processed

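RNA of 9 samples was measured on Agilent single-colour arrays. The authors deposited the scanner intensity of each spot, background-subtracted and unscaled between arrays (Agilent Feature Extraction 11.5.1.1), and a table of log2 values in which 100% of probes differ from the scanner log2 values by 1 constant per array, to within 0.001.

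Control spots (4259 of 62976) and outlier spots (357 to 484 per array) were left out, spots of a probe were averaged as log2, and the array's 75th percentile was subtracted. Saturation was found on 0 spots. Detection of a probe needed a share of at least 0.5 of its spots to be significant and well above background. Each comparison was fitted on its own 6 arrays with limma 3.58.1 in R 4.3.3 over probes with detection on 1 or more of those. To be called, a probe had to pass 2-fold and a Benjamini-Hochberg adjusted p of 0.05. limma's F test used all 9 arrays. The steps were tested on simulated data. Alternatives were normexp (offset 50), quantile normalization, other detection filters, slide or replicate number as a block, 1 fit of all arrays, the log2 table the authors deposited, and each array dropped in turn. The number of arrays limits the precision.

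Genes were named by RefSeq accession. Named genes are every member, list genes that were called and otherwise the 2 highest and 2 lowest of a list among genes detected on all arrays of the comparison, each by its brightest probe. For the lists, not every extreme of every comparison is printed. A result of the TGF-beta list is not reported here. The members and lists were chosen with earlier results of these data known. Promoter stretches were read from a RefSeq table of GRCh38.p14, and the array files carry no coordinates.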

Additional observations from a re-analysis of the deposited data

How the results depend on the processing

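The number of members called in Colony against parental cells, 1 as reported, was 0 under normexp, without the detection filter and with the replicate block, and 0 to 1 when 1 array was left out. In SN against parental cells it was 0 as reported and 1, KLF9, under normexp, with probes detected on all arrays of a group, with all 9 arrays in 1 fit and at an unadjusted p. Across the 3 groups the F test passed 2 member probes as reported and 4 under normexp (KLF5, KLF6 NM_001300, KLF9 and KLF13). The F test passed 3 under quantile normalization and with probes detected on all arrays of a group (KLF5, KLF9 and KLF13). Without the detection filter it passed 1 (KLF9), as it did with the replicate block, where KLF5 had an adjusted p of 0.0657. At an unadjusted p the F test passed 7, and 0 to 2 when 1 array was left out. KLF6 NM_001160124 passed it with slide as a block (adjusted p = 0.0324) and without SN replicate 3 (0.0290). The count in Colony against SN stayed at 0 under normexp, quantile normalization and each other alternative, leave-one-out included.

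Some small differences changed sign. With slide as a block, Colony against SN gave -0.063 for KLF7, -0.011 for KLF9 and -0.041 for KLF11, and SN against parental cells gave 0.029 for KLF6 (NM_001300), which is the fit without SN replicate 3. Leaving out 1 array moved Colony against parental cells from -0.40 to 0.10 for KLF2, from -0.093 to 0.19 for KLF3 and from -0.15 to 0.019 for KLF7. It moved Colony against SN from -0.063 to 0.24 for KLF7, from -0.042 to 0.17 for KLF9 and from -0.041 to 0.19 for KLF11, and SN against parental cells from -0.10 to 0.029 for KLF6 (NM_001300). Slide could not be a block in Colony against parental cells, whose arrays all lay on slide 1. The cause of these changes was not tested.

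Groups share replicate numbers, and Colony and SN of the same number also share a passage. By the paper's methods SN cells were collected from the dishes of the colonies, but no label says that same-numbered samples came from the same dish. The intervals and p-values given above for Colony against SN come from limma fits without pairing. Among members whose Colony and SN groups overlapped, each Colony array lay above the SN array of its number for KLF3 and KLF5, and below it for KLF10. Deviations of same-numbered arrays correlated at 0.24, 0.07 and 0.14 between Colony and SN, where every array correlated best with its own number, and at -0.05 to -0.01 between Colony and parental cells. With the replicate block the calls over all probes in Colony against parental cells went from 1143 to 0, and the adjusted p of KLF9 there was 0.121. The same total was 1581 with all arrays in 1 fit and 333 under normexp, and without 1 array it was 1 (parental replicate 2), 1090 (parental replicate 3), 141 (Colony replicate 1), 0 (Colony replicate 2), 85 (Colony replicate 3) or 1362 (parental replicate 1), so the background share moves with these choices as well. KLF15, detected on no array, and KLF8 and KLF14, detected on some, were too dim for their differences to be measured.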
